A study of Mus musculus with 12 samples.

Results

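The genes described are 9 that encode calcium-dependent kinases and phosphatases of neurons and their targets: Camk2a, Camk2b, Camk2d, Camk2g, Camk4, Creb1, Prkca, Ppp3ca and Ppp1r1b. They were chosen by name, were matched by symbol to 9 of the 48709 Ensembl gene IDs in the count files, and all 9 were among the 16829 genes with enough counts to test. RNA came from the CA1 field of the mouse hippocampus, dissected under a microscope, in 6 libraries from mice given a myocardial infarction (MI) by tying off a coronary artery and 6 from mice that had like surgery without the tie (Sham). The labels give no strain, genotype, age, sex or time after surgery. Nor do they tie a library to 1 animal, and the p-values therefore speak of the spread among libraries, which may be technical in part. The title of the series links heart failure to impaired memory.

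Calcium that enters a neuron through NMDA receptors and voltage-gated channels binds calmodulin, which switches on both kinases and a phosphatase. CaMKII, a holoenzyme of alpha, beta, gamma and delta subunits (Camk2a, Camk2b, Camk2g, Camk2d), phosphorylates synaptic receptors and scaffolds and is needed for long-term potentiation in CA1. Calcineurin, whose main brain catalytic subunit is Ppp3ca, removes phosphates and favours depression of synapses, while CaMKIV (Camk4) in the nucleus phosphorylates the transcription factor CREB (Creb1). Protein kinase C alpha (Prkca) responds to calcium and diacylglycerol. DARPP-32 (Ppp1r1b), best known in striatal neurons, inhibits protein phosphatase 1 once protein kinase A has phosphorylated it, and is itself a substrate of calcineurin.

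The promoters of 4 members were in the RefSeq table used (Camk2b, Camk2d, Creb1 and Prkca; build GRCm38.p6), each as 250 bases before and 50 bases after the RefSeq start, which need not be the start used in CA1. Shown are a pair whose levels went together across libraries (Camk2b and Prkca), a member that went the opposite way (Camk2d), and Fos, an immediate early gene and textbook CREB target. In the first 3 the capitals mark the GC box, GGGCGG on either strand, and in Fos the short form of the cAMP response element, TGACG on either strand.
Camk2b (chr11:6065699-6065998, minus strand): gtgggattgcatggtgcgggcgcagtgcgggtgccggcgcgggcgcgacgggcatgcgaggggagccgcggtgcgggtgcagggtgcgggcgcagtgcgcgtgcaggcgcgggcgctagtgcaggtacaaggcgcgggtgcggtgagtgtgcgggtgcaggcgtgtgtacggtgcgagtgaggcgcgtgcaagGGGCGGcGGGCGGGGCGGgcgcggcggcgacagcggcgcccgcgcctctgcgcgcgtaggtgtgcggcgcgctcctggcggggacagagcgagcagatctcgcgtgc
Prkca (chr11:108343839-108344138, minus strand): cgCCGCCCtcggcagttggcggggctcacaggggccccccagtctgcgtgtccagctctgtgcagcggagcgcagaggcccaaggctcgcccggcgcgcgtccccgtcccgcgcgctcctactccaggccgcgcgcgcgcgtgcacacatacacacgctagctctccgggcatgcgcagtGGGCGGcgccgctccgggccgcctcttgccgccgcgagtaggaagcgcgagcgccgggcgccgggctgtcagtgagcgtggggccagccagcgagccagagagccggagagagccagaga
Camk2d (chr3:126596701-126597000, plus strand): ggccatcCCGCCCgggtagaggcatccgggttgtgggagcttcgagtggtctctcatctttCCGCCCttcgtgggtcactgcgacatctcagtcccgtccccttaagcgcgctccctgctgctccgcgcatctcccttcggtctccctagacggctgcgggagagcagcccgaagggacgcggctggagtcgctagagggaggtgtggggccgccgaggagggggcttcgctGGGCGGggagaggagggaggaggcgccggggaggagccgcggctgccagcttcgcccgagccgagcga
Fos (chr12:85473640-85473939, plus strand): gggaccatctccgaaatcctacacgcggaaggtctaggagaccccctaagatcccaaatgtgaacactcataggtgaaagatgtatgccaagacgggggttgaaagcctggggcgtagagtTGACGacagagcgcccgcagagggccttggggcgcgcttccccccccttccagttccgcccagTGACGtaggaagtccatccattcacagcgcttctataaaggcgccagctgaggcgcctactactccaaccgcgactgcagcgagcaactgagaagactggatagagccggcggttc
The GC box occurred 3 times in Camk2b, where 2 of the matches share a base, 2 times in Prkca and 3 times in Camk2d. Creb1 held it 2 times, and Fos, where it is not marked, 1 time. Of all 32851 promoters in the table, 35.7% held it. The short form stood 2 times in Fos, 0 times in the 4 member promoters and in 20.8% of all promoters, and the full element TGACGTCA in 1.79% of all and in 0 of these 5. GC content was 77.3% in the Camk2b window, 75.3% in Prkca, 70.3% in Camk2d and 58.7% in Fos.

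For none of the 9 genes was a difference between MI and Sham detected beyond the spread of the libraries. At an adjusted p under 0.05 (edgeR quasi-likelihood F test, Benjamini-Hochberg over all genes) 0 of 9 members were called, against 0 of 16829 genes (0%) with a minimum adjusted p of 0.597. The members also gave 0 at an unadjusted p under 0.05, against 1270 of all genes (7.55%), and DESeq2 and limma-voom with sample weights called 0 members after adjustment. The levels of the groups in CPM, counts scaled to library size, overlapped in all 9, where 69 genes (0.41%) had ranges that did not overlap. The log2 fold change of MI over Sham was positive in 5 members and negative in 4, with a median of 0.01; over all genes the median was -0.01, and 8011 of 16829 were positive. The biological coefficient of variation (the spread beyond counting noise) had a median of 20.1% in the members and 11.3% over all genes. In 6 members it exceeded that of 82.5% to 98.6% of tested genes, while Camk2g (11.5%), Ppp1r1b (11.8%) and Creb1 (10.5%) were near the middle.

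Library totals ran from 20764133 to 35643127 counts, and the members had 623 to 193562 counts per library, so counting noise was small beside the spread. Counts of Y-linked genes exceeded those of Xist, made from the inactive X chromosome, in MI 1, 3 and 4 and in Sham 1, 2 and 3 (the Y set), and the reverse held in the other 6 libraries (the Xist set). These sets were read from the counts and are not groups of the study. CA1 markers were well expressed: Wfs1 had a median of 243 CPM in MI and 233 CPM in Sham, and Fibcd1 232 CPM in MI and 184 CPM in Sham. The 8 neocortical markers summed to 447 to 635 CPM in MI and 365 to 1401 CPM in Sham, and the 8 markers of fibroblasts and meninges to 101 to 200 CPM in MI and 73.0 to 393 CPM in Sham; the mean log2 score of both lists was highest in Sham 1. The 10 dentate granule cell markers summed to 255 to 583 CPM in MI and 310 to 1282 CPM in Sham, highest in Sham 6. The 10 oligodendrocyte markers summed to 5156 to 6559 CPM in MI and 2809 to 5735 CPM in Sham. All 10 had a positive log2 fold change of MI over Sham, with a median of 0.50. Positive values were held by 1 of the 8 neocortical markers, 0 of the 8 of fibroblasts and meninges and 0 of the 10 of dentate granule cells. No list was tested. In bulk tissue, fewer cells of a type and less RNA per cell cannot be told apart.

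In CPM per kilobase of exon, Camk2a stood first, with a mean level of 556 over the 12 libraries. Ppp3ca followed with 169 and Camk2b with 119, then Camk4 with 55.3, Camk2g with 32.6, Prkca with 30.1, Ppp1r1b with 12.4, Camk2d with 4.87 and Creb1 with 4.75. Lengths were those of all exons of a gene joined. Camk2a lay above Ppp3ca, Camk2b above Camk4 and Prkca above Ppp1r1b with no overlap of their ranges. Ppp3ca was above Camk2b, Camk4 above Camk2g and Ppp1r1b above Camk2d in 12 of 12 libraries although their ranges overlapped. Camk2g and Prkca kept their order in 7 of 12 libraries and Camk2d and Creb1 in 5 of 12, so neither pair was separated. With the longest transcript as the length, Camk2d reached 19.8 and Ppp1r1b 18.1, in that order in 6 of 12 libraries, and Camk2g exceeded Prkca in 12 of 12.

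**Figure D1:**
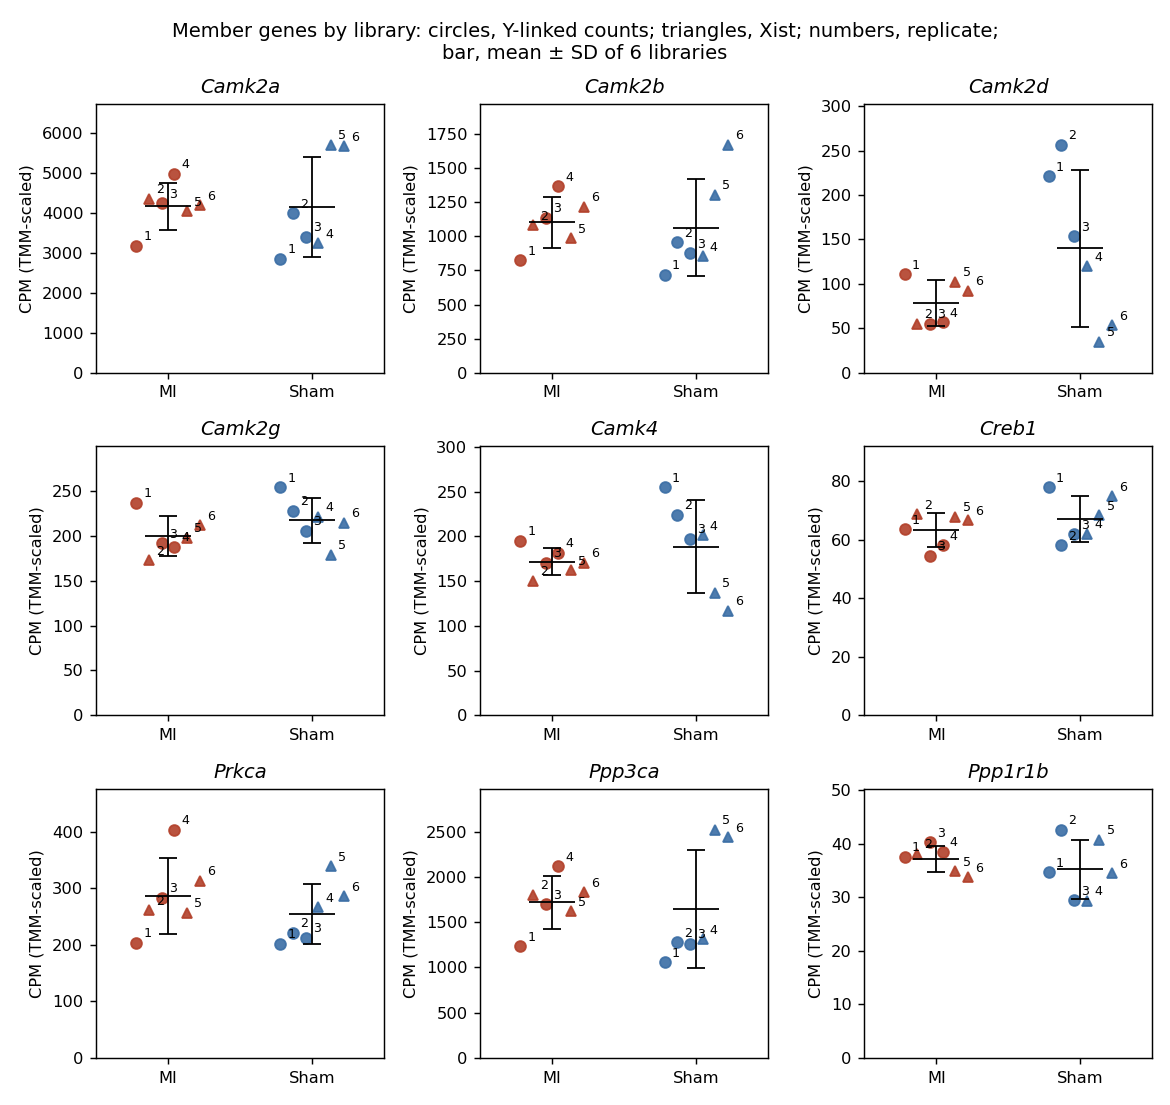
CPM of the 9 member genes (y axis, linear from 0) in each library, MI left and Sham right, with the replicate number beside each point and the mean ± SD of 6 libraries as a bar. The groups overlap in every panel; Sham 5 and Sham 6 lie high in Camk2a, Camk2b and Ppp3ca and low in Camk2d and Camk4.

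Camk2a (ENSMUSG00000024617, chromosome 18, 60925618 to 60988152, mm10), the alpha subunit of CaMKII, was the most abundant member and its mean hardly differed between the groups. It had 3172, 4349.7, 4237, 4973, 4045 and 4191 CPM in MI 1 to MI 6, against 2848, 3988, 3402, 3238, 5703 and 5672 CPM in Sham 1 to Sham 6. The Sham libraries enclosed the whole MI range, with Sham 1 lowest and Sham 5 and Sham 6 highest. The means were 4161 ± 582 CPM in MI and 4142 ± 1252 CPM in Sham (n = 6 each, SD), that is a log2 fold change of 0.01 (SE 0.18, edgeR adjusted p 0.996).

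Camk2b (ENSMUSG00000057897, chromosome 11, 5969644 to 6066362), the beta subunit, which binds actin and anchors the holoenzyme in spines, showed the same layout of libraries. Its levels were 825, 1080.2, 1137, 1368, 986 and 1218 CPM in MI 1 to MI 6, against 719, 959, 877, 854, 1306 and 1673 CPM in Sham 1 to Sham 6. Sham 5 and Sham 6 stood above the other Sham libraries, and MI 1 and Sham 1 were lowest in their groups. MI over Sham gave a log2 fold change of 0.05 (SE 0.19, edgeR adjusted p 0.973).

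Camk2d (ENSMUSG00000053819, chromosome 3, 126596302 to 126846326), the delta subunit, which is the main form of heart muscle and a minor one in forebrain, was the most variable member. It had 111, 55.3, 55.4, 57.1, 102 and 92.4 CPM in MI 1 to MI 6, against 221, 257, 154, 120.1, 34.8 and 53.8 CPM in Sham 1 to Sham 6. All 6 MI libraries lay below the Sham median of 137 CPM, yet Sham 5 and Sham 6 were lower than every MI library. The highest library had 7.38 times the level of the lowest, and the biological coefficient of variation was 49.9%, above that of 98.6% of tested genes. MI averaged 78.9 ± 25.9 CPM and Sham 140.1 ± 88.6 CPM (n = 6 each, SD). The log2 fold change of -0.83 (SE 0.43) was the largest in size of the 9 and did not pass, with an edgeR unadjusted p of 0.0755 and an adjusted p of 0.690. Leaving out 1 library at a time gave -1.03 without Sham 5 (edgeR unadjusted p 0.0158), -0.995 without Sham 6 (0.0364), -0.65 without Sham 1 (0.175) and -0.56 without Sham 2 (0.206), the extremes of 12 fits, none of which passed after adjustment. With the sex-linked set described above as a covariate it was -0.62 (edgeR unadjusted p 0.164).

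Camk2g (ENSMUSG00000021820, chromosome 14, 20734875 to 20794088), the gamma subunit, linked in mouse neurons to carrying calmodulin to the nucleus, had 237, 173, 191, 188, 198 and 212 CPM in MI 1 to MI 6, against 254, 228, 206, 221, 179 and 215 CPM in Sham 1 to Sham 6. Only MI 1 lay above the Sham median. Its log2 fold change was -0.12 (SE 0.09, edgeR adjusted p 0.788).

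The shares of the 4 CaMKII transcripts overlapped between the groups. As a share of the length-scaled sum of the 4 genes, Camk2a took 78.1 ± 1.37% in MI and 77.6 ± 2.24% in Sham (n = 6 each, SD), and Camk2b 16.9 ± 0.97% in MI and 16.3 ± 1.31% in Sham. Camk2g took 4.49 ± 1.14% in MI and 5.15 ± 1.76% in Sham. Camk2d took 0.514 ± 0.232% in MI and 1.02 ± 0.72% in Sham, ranging from 0.299% to 0.885% in MI and from 0.165% to 1.93% in Sham. The Camk2d share thus varied 11.7-fold between libraries, where that of Camk2a varied 1.09-fold. Its size depended on the length used: with the longest transcript it was 1.27% in MI and 2.49% in Sham. How reads shared by these related genes were counted is not stated in the labels.

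In the nuclear branch, Camk4 (ENSMUSG00000038128, chromosome 18, 32934931 to 33191228) was spread more widely in Sham than in MI. It had 195, 151, 170.3, 182, 162 and 171 CPM in MI 1 to MI 6, against 255, 224, 198, 201, 137 and 117 CPM in Sham 1 to Sham 6. All 6 MI libraries lay below the Sham median of 199 CPM, and Sham 5 and Sham 6 lay below all of MI, as for Camk2d. MI over Sham gave a log2 fold change of -0.13 (SE 0.16, edgeR adjusted p 0.894), and -0.032 without Sham 1. Creb1 (ENSMUSG00000025958, chromosome 1, 64532645 to 64604548) was among the steadier members, with 63.7, 68.7, 54.7, 58.1, 67.9 and 66.7 CPM in MI 1 to MI 6, against 78.0, 58.3, 62.0, 62.1, 68.5 and 74.9 CPM in Sham 1 to Sham 6. Its medians were 65.2 CPM in MI and 65.3 CPM in Sham, and the log2 fold change was -0.09 (SE 0.08, edgeR adjusted p 0.842).

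Among the remaining enzymes, Prkca (ENSMUSG00000050965, chromosome 11, 107933387 to 108343928) had 204, 261, 283, 403, 257 and 313 CPM in MI 1 to MI 6, against 202, 221, 212, 266, 339 and 286 CPM in Sham 1 to Sham 6. MI 4 was the highest of all 12, and 5 of 6 from MI exceeded the Sham median of 244 CPM. Its log2 fold change was 0.17 (SE 0.16, edgeR adjusted p 0.849), and 0.052 without MI 4. Ppp3ca (ENSMUSG00000028161, chromosome 3, 136670124 to 136937727), the calcineurin subunit, had 1235, 1805, 1698, 2118, 1621 and 1832 CPM in MI 1 to MI 6, against 1058, 1277, 1263, 1311, 2521 and 2442 CPM in Sham 1 to Sham 6. Here too 5 of 6 MI libraries exceeded the Sham median of 1294 CPM while Sham 5 and Sham 6 exceeded all of MI, so the means were close, at 1718 ± 291 CPM in MI and 1645 ± 654 CPM in Sham (n = 6 each, SD). MI over Sham gave a log2 fold change of 0.06 (SE 0.22, edgeR adjusted p 0.972).

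Ppp1r1b (ENSMUSG00000061718, chromosome 11, 98348404 to 98357796) was low in CA1 tissue and varied little, with 37.5, 38.1, 40.3, 38.5, 34.9 and 33.7 CPM in MI 1 to MI 6, against 34.6, 42.5, 29.4, 29.3, 40.7 and 34.5 CPM in Sham 1 to Sham 6. Its log2 fold change was 0.08 (SE 0.09, edgeR adjusted p 0.894). Because the gene is abundant in striatum, the striatal receptors are set beside it: Drd1 had medians of 7.70 CPM in MI and 9.99 CPM in Sham, and Drd2 1.24 CPM in MI and 1.43 CPM in Sham. The 10 striatal markers summed to 164 to 187 CPM in MI and 188 to 249 CPM in Sham, but their mean log2 score overlapped, at -0.37 to 0.10 in MI and -0.56 to 0.47 in Sham. The part of striatal tissue in the level of Ppp1r1b was not tested. Exons of Ppp1r1b, Prkca and Camk4 share 460, 30 and 72 bases with genes on the opposite strand (1700003D09Rik, Apoh and 2310026I22Rik). Those genes had 132, 58 and 66 counts over all 12 libraries. For Ppp1r1b the shared bases are 460 of 2928 in its joined exons. The use of strand in counting is not stated, and the part of this overlap in its level was not tested.

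Levels of 7 of the 9 members were linked from library to library. Of 36 pairs, 19 were correlated over the 12 libraries (Pearson's r of log2 CPM, 100000 permutations, two-sided, adjusted p under 0.05 over the 36), 9 positively and 10 negatively, and 18 were by Spearman's rho. Camk2a, Camk2b, Ppp3ca and Prkca went together, and were opposed to Camk2d, and for most pairs to Camk4 and Camk2g. Creb1 and Ppp1r1b were in none of the 19 pairs. The links of Camk2g were weaker in the Xist set, with r of -0.377 to Camk2a, -0.352 to Ppp3ca, -0.115 to Prkca and 0.308 to Camk4. To Camk2d it had r of 0.663 there. These values are each over 6 libraries and were not tested. The weakest of the 19 had a size of r of 0.637, which was reached by 52.8% of member pairs and by 9.08% of all pairs of tested genes, many of which have far fewer counts than the members.

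**Figure D2:**
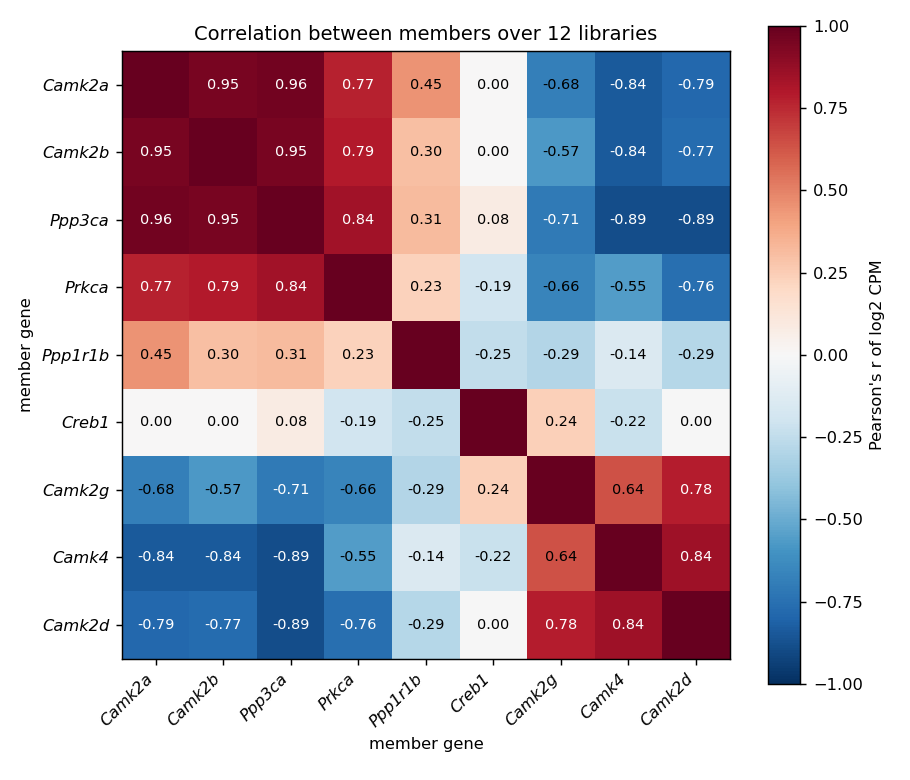
Pearson's r of log2 CPM over 12 libraries for each pair of members (both axes), red for positive and blue for negative. Camk2a, Camk2b, Ppp3ca and Prkca form a positive block, opposed to Camk2g, Camk4 and Camk2d, while Creb1 and Ppp1r1b are pale.

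The closest pair was Camk2a and Ppp3ca, a kinase and a phosphatase switched on by the same calcium sensor, with r = 0.964 and rho = 0.958 over 12 libraries (permutation adjusted p 0.00018 for r and 0.00024 for rho). Without Sham 1 and Sham 5, the libraries farthest from the median of Camk2a, r was 0.938. Within groups r was 0.985 in MI and 0.964 in Sham, and within sets 0.933 in the Y set and 0.994 in the Xist set. Camk2a and Camk2b had r = 0.952 and rho = 0.951 (permutation adjusted p 0.00024 for both), and 0.963 without Sham 1 and Sham 5. Ppp3ca and Prkca had r = 0.841 and rho = 0.930 (permutation adjusted p 0.00316 and 0.00036), and 0.844 without MI 4 and Sham 1.

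In the opposite direction, Camk2d and Ppp3ca had r = -0.889 and rho = -0.874 (permutation adjusted p 0.00144 and 0.00175), and -0.886 without Sham 2 and Sham 5. It was -0.676 in MI, -0.943 in Sham, -0.854 in the Y set and -0.886 in the Xist set. Camk4 and Ppp3ca had r = -0.890 and rho = -0.811 (permutation adjusted p 0.0009 and 0.00759) and -0.825 without Sham 1 and Sham 6, with -0.417 in MI and -0.968 in Sham. Camk2d and Camk4 went together, with r = 0.844 and rho = 0.930 (permutation adjusted p 0.00312 and 0.00036), 0.388 in MI and 0.915 in Sham. Without Sham 1 and Sham 6, chosen after the data were seen, 16 of the 19 pairs stayed past the threshold, none was added, and all 19 kept their sign. Creb1 changed sign between the sets, with r to Camk2a of -0.823 in the Y set and 0.844 in the Xist set, each over 6 libraries and untested.

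**Figure D3:**
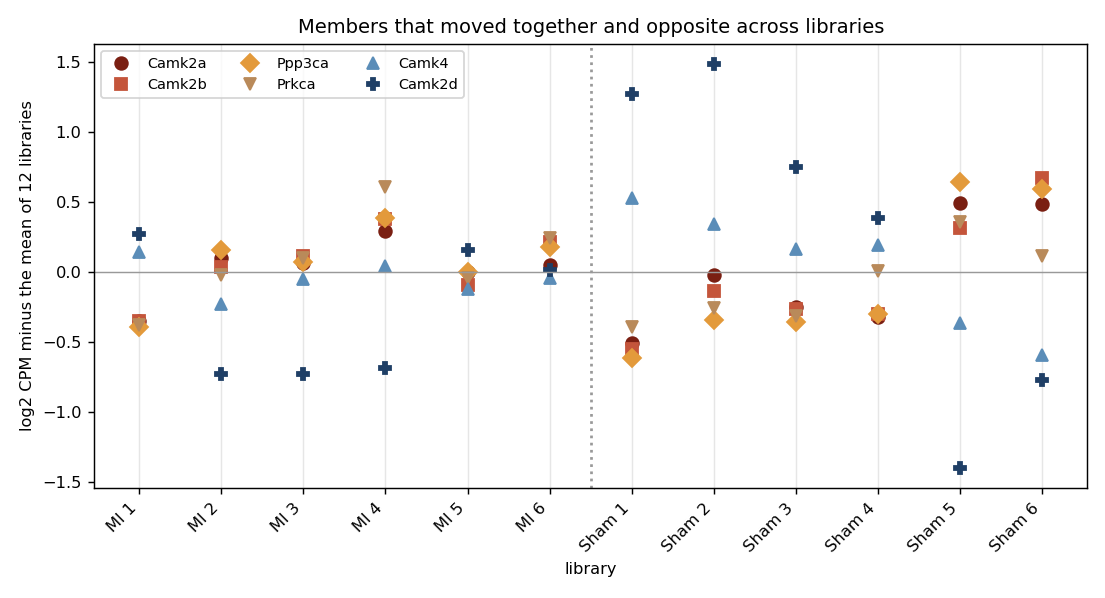
log2 CPM minus the mean of 12 libraries (y axis) for 6 members in each library (x axis), MI left of the dotted line and Sham right of it. Camk2a, Camk2b, Ppp3ca and Prkca lie above the mean in MI 4, Sham 5 and Sham 6 and below it in MI 1 and Sham 1, with Camk2d and Camk4 placed mostly the opposite way.

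In Camk2a, Camk2b and Ppp3ca, Sham 1 was the lowest of the 12 libraries and Sham 5 and Sham 6 were among the 3 highest, while Prkca was highest in MI 4 and Camk2d in Sham 2. Marker scores differed along it, though not all in the same order. The neocortex score, a mean log2 difference from all libraries over 8 genes, ran from -0.29 to 0.11 in MI and from -0.57 in Sham 5 to 0.89 in Sham 1. The fibroblast and meningeal score ran from -0.85 to 0.43 in MI and from -0.70 in Sham 6 to 1.58 in Sham 1. That of CA1 pyramidal neurons ran from -0.06 to 0.40 in MI and from -0.95 in Sham 1 to 0.65 in Sham 5, with -0.09 in Sham 6, and that of dentate granule cells from -1.54 to 0.85 in MI and from -1.22 in Sham 1 to 2.13 in Sham 6. None of the markers was at 0 in all libraries, and the part of dissected tissue in the shared movement was not tested.

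Outside the 9 genes, 12583 with at least 50 counts on average and an ordinary symbol were searched for the pattern most like each member over the 12 libraries. Camk2a was closest to Nmt1, an N-myristoyltransferase (r = 0.991), and Prickle2 (0.987), Camk2b to Dagla, which makes the endocannabinoid 2-arachidonoylglycerol (0.987), and Golm1 (0.979), and Ppp3ca to Zbtb18, a zinc finger repressor (0.992), and Epha4, an ephrin receptor (0.989). Prkca was closest to Slc17a8, a vesicular glutamate transporter (0.966), and Arhgef17 (0.926). Camk2d was closest to Igfn1 (0.982) and Fam149a (0.979), Camk4 to Spock1 (0.979) and the citrate transporter gene Slc13a5 (0.977), and Camk2g to Phyhipl (0.922) and the homeobox gene Cux1 (0.922). Cux1 is also 1 of the 8 neocortical markers scored above. Creb1 was closest to Mier3 (0.964) and Ythdf3, a reader of methylated RNA (0.963), and Ppp1r1b to Rrp7a (0.914) and Pmm1 (0.888). These are descriptions of 12 libraries that share a dissection and a scaling, picked as the highest of many.

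The difference between MI and Sham took opposite signs in the sex-linked sets for 6 of the 9 members, against 50.4% of the 16591 genes tested in both sets, and the difference between the sets did not pass. The 6 genes are correlated with each other, as given above, and are not independent. In the Y set Camk2d averaged 74.5 ± 31.6 CPM in MI and 211 ± 52.2 CPM in Sham (n = 3 each, SD), that is a log2 fold change of -1.50 (SE 0.32, edgeR unadjusted p 0.00221, adjusted p 0.0855). In the Xist set it averaged 83.4 ± 24.8 CPM in MI and 69.6 ± 44.8 CPM in Sham (n = 3 each, SD), that is a log2 fold change of 0.26 (SE 0.47, edgeR adjusted p 0.999). Camk4 had -0.31 in the Y set (SE 0.10, edgeR unadjusted p 0.0149, adjusted p 0.194) and 0.09 in the Xist set, and Ppp3ca 0.48 (SE 0.19, edgeR unadjusted p 0.0344, adjusted p 0.266) and -0.25. Prkca had 0.48 in the Y set and -0.10 in the Xist set, Camk2b 0.38 and -0.22, and Camk2a 0.27 and -0.21.

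Within the Y set 3 of 9 members had an unadjusted p under 0.05 in edgeR, against 16.3% of the genes tested, and 0 of 9 an adjusted one, against 211 genes (1.26%). Within the Xist set 0 of 9 had an unadjusted p under 0.05, against 1.27% of genes. The CPM ranges of MI and Sham did not overlap for 2 of 9 members in the Y set, Camk2d and Camk4, against 21.7% of genes, and for 0 of 9 in the Xist set, against 5.62%. Marker scores, mean log2 differences from all libraries, also differed between MI and Sham in the Y set. The 10 oligodendrocyte markers scored 0.43, 0.29 and 0.23 in MI 1, MI 3 and MI 4, against -0.62, -0.75 and -0.46 in Sham 1, Sham 2 and Sham 3. The 8 fibroblast and meningeal markers scored -0.31, -0.85 and -0.72 in those MI libraries, against 1.58, 0.80 and 0.42 in those Sham libraries. The CA1 pyramidal neuron markers scored -0.0615, 0.24 and 0.40 there in MI, against -0.95, -0.33 and -0.0620 in Sham, ranges that nearly touched. Striatal, interneuron and choroid plexus scores were also apart in the Y set. Only 3 of the 6 choroid plexus markers had enough counts to test. Those of CA2 and CA3, dentate granule cells, neocortex, astrocytes, microglia and endothelium overlapped. In the Xist set the oligodendrocyte scores were 0.11 to 0.33 in MI and -0.05 to 0.25 in Sham, and the meningeal ones -0.43 to 0.43 in MI and -0.70 to 0.49 in Sham. The part of these cell types in the members' values was not tested.

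**Figure D4:**
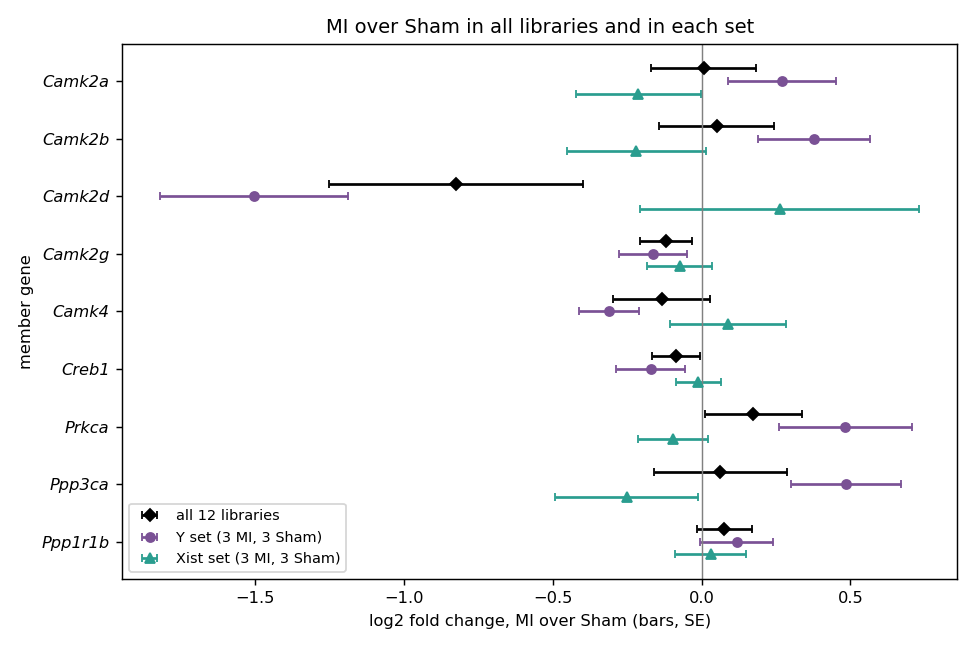
log2 fold change of MI over Sham (x axis, bars ± SE) for each member (y axis) in all 12 libraries, in the Y set and in the Xist set, 3 MI and 3 Sham libraries in each set. The points of the sets lie on opposite sides of 0 for Camk2a, Camk2b, Camk2d, Camk4, Prkca and Ppp3ca.

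The test of the difference itself, the interaction of MI with the set, called 0 of 9 members, against 2 of 16829 genes (0.0119%), Gpr37 and Trh, which were named after their values were seen. At an unadjusted p under 0.05 it gave 1 of 9, Camk2d, against 8.24% of genes. The log2 fold change of Camk2d in the Y set minus that in the Xist set was -1.76 (SE 0.64, edgeR unadjusted p 0.0201, adjusted p 0.560). For Ppp3ca the difference was 0.74 (SE 0.34, adjusted p 0.601) and for Prkca 0.59 (SE 0.28, adjusted p 0.604), and over the 9 members the adjusted p ran from 0.560 to 0.902. When each library was left out in turn, the difference of Camk2d ran from -2.43 without Sham 4 (edgeR adjusted p 0.0769) to -1.44 without Sham 5 (0.827), and that of Camk4 from -0.66 without Sham 4 (0.0641) to -0.24 without Sham 6 (0.761). For Ppp3ca it ran from 0.54 without MI 4 (edgeR adjusted p 0.895) to 0.98 without Sham 4 (0.0806), and for Prkca from 0.29 without MI 4 (0.895) to 0.79 without MI 1 (0.408).

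Partners and targets of the 9 genes were read from 10 lists of 91 genes, all of them tested. At an adjusted p under 0.05 edgeR called 0 of 91, and at an unadjusted p under 0.05 it gave 4 (4.4%, below the 7.55% of all genes), 1 higher and 3 lower. The median log2 fold change was 0.01, with 48 positive and 43 negative. The names given are the 3 genes of each list with the smallest p, none past the adjusted threshold.

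**Figure D5:**
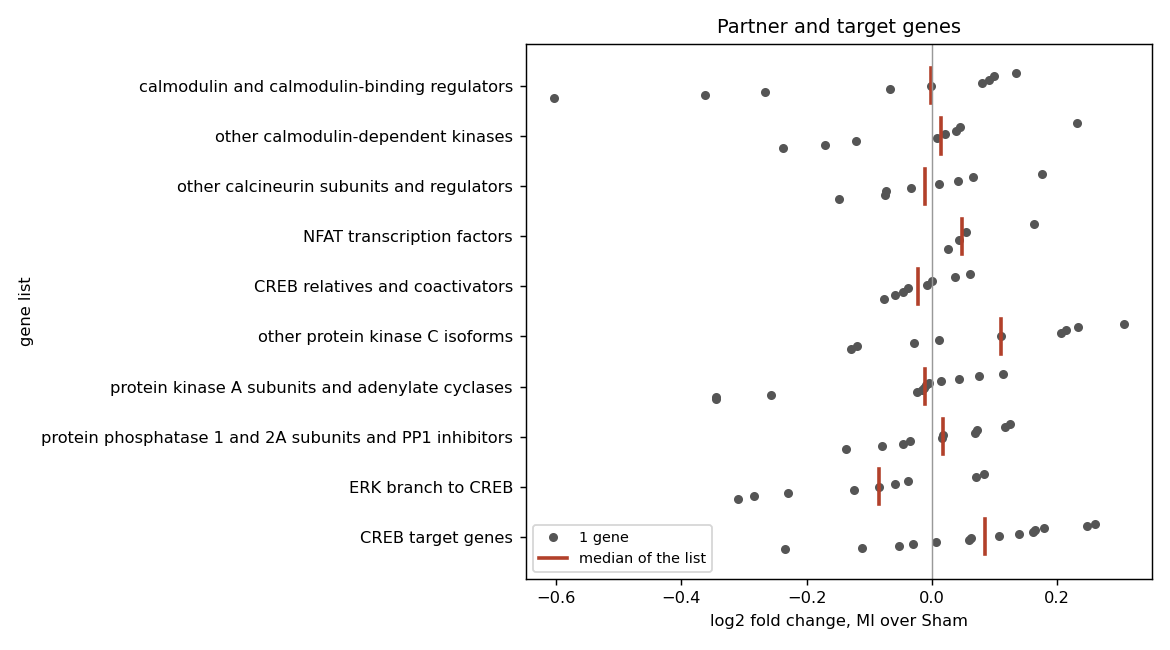
log2 fold change of MI over Sham (x axis) for each gene (point) of 10 lists of partners and targets (y axis), with the median of each list as a red bar. List medians lie between -0.08 and 0.11, and 0 genes passed the adjusted threshold.

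Upstream of the kinases, the 9 genes of calmodulin, calmodulin-binding regulators and CaMKII inhibitors had 4 positive and 5 negative log2 fold changes. Pcp4, a small protein that speeds calcium exchange on calmodulin, had 16.2 ± 2.81 CPM in MI and 24.7 ± 13.5 CPM in Sham (n = 6 each, SD), that is a log2 fold change of -0.60 (SE 0.31). Camk2n1, an inhibitor of CaMKII, had -0.36 (SE 0.20), with 654 ± 55.0 CPM in MI and 840 ± 343 CPM in Sham. Calm2, 1 of the calmodulin genes, had 0.09 (SE 0.07). In these the SD was wider in Sham than in MI, as it was for 8 of the 9 members, all but Prkca. How often this held over all genes was not counted, so it is not read as a trait of these genes.

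The 8 other calmodulin-dependent kinases had 5 positive and 3 negative values, with Camk1g at 0.23 (SE 0.13), Camkk2, the kinase that activates CaMKI and CaMKIV, at -0.12 (SE 0.08) and Pnck at -0.24 (SE 0.18). The 8 other calcineurin subunits and regulators had 4 positive and 4 negative values, with Akap5, the anchoring protein that holds calcineurin and protein kinase A at synapses, at -0.15 (SE 0.08), Rcan2, a calcineurin inhibitor, at 0.18 (SE 0.11) and Cabin1 at -0.07 (SE 0.06). All 4 NFAT factors, which calcineurin sends to the nucleus, were positive without passing, with Nfatc2 at 0.16 (SE 0.15), Nfatc4 at 0.05 (SE 0.20) and Nfatc3 at 0.04 (SE 0.08).

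Of the 9 genes listed with protein kinase C, which include the protein kinase D gene Prkd1, 6 were positive. Prkci, an atypical isoform, had 63.0 ± 3.16 CPM in MI and 68.5 ± 3.99 CPM in Sham (n = 6 each, SD), that is a log2 fold change of -0.12 (SE 0.05, edgeR unadjusted p 0.0257, adjusted p 0.614). Prkcd had 0.31 (SE 0.17) and Prkch 0.21 (SE 0.11). Among the 12 protein kinase A subunits and adenylate cyclases 8 were negative. Prkacb, a catalytic subunit, had 353 ± 42.3 CPM in MI and 448 ± 109.6 CPM in Sham (n = 6 each, SD), that is a log2 fold change of -0.34 (SE 0.15, edgeR unadjusted p 0.0386, adjusted p 0.639). Prkar2b, a regulatory subunit, had -0.34 (SE 0.19) and Adcy8, a calcium-stimulated cyclase, -0.26 (SE 0.17). The 10 subunits of protein phosphatases 1 and 2A and inhibitors of protein phosphatase 1 had a median of 0.02, with Ppp1cc at 0.12 (SE 0.10), Ppp1r2 at 0.07 (SE 0.06) and Ppp2r1a at 0.07 (SE 0.06).

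The ERK branch, another route to CREB, had 7 of 9 genes negative and a median of -0.08. Mapk3, which encodes ERK1, had 116 ± 8.14 CPM in MI and 144 ± 34.3 CPM in Sham (n = 6 each, SD), that is a log2 fold change of -0.31 (SE 0.14, edgeR unadjusted p 0.0401, adjusted p 0.639). The ribosomal S6 kinases Rps6ka2 and Rps6ka3 had -0.28 (SE 0.14) and -0.23 (SE 0.12). Relatives and coactivators of CREB were positive in 3 of 8 cases (median -0.02), with Atf2 at -0.08 (SE 0.05), Crebbp at -0.05 (SE 0.05) and Ep300 at -0.06 (SE 0.07). Of the 14 CREB target genes 10 were positive, with a median of 0.08. Vgf, a neuropeptide precursor, had 188 ± 14.2 CPM in MI and 166 ± 18.2 CPM in Sham (n = 6 each, SD), that is a log2 fold change of 0.18 (SE 0.08, edgeR unadjusted p 0.0365, adjusted p 0.635). Npas4, an activity-induced transcription factor, had 0.25 (SE 0.27) and Crh, corticotropin-releasing hormone, -0.23 (SE 0.33).

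The authors' deposited tables of genes changed in MI hold 1059 genes, where 16829 genes were tested here. They include 0 of the 9 members and 2 of the 91 partner and target genes. No result about the members is read from their absence. How the authors derived their log2 fold changes and adjusted p-values is not stated in the labels, so the gap to the values from the counts cannot be traced. Rcan2 has a log2 fold change of 0.29 and an adjusted p of 0.0121 in the authors' deposited table, where the counts gave 0.18 (SE 0.11, edgeR adjusted p 0.742). Ppp1r9a, a scaffold of protein phosphatase 1 in spines, has -0.14 and 0.0198 in the authors' deposited table, where the counts gave -0.08 (SE 0.10, edgeR adjusted p 0.894).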

How the data were processed

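Per the labels' protocols, libraries of polyadenylated RNA were read from one end over 50 bases. The submitters' processing notes name STAR 2.5.2b, Subread 1.5.1 with featureCounts, FastQC 0.11.5 and mm10; the use of strand in counting is not stated. The authors deposited raw counts for each Ensembl gene as whole numbers. The authors' deposited gene tables give log2 fold changes and adjusted p-values; 24 columns of per-library values in them were not used.

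Symbols, positions and exon lengths came from GENCODE M21 (48349 of 48709 IDs matched). Genes were filtered with filterByExpr, scaled by TMM and tested two-sided with the robust quasi-likelihood fit of edgeR 4.0.16 under R 4.3.3, at a threshold of 0.05 after Benjamini-Hochberg adjustment. CPM use TMM library sizes; log2 CPM used a prior count of 2. Alternatives were other scalings and filters, DESeq2 1.42.0, limma-voom with sample weights (limma 3.58.1), the sex-linked set as a covariate, the replicate block and leaving out libraries; each set alone and the correlations without Sham 1 and Sham 6 were added after seeing the data. Correlations were permuted in Python (numpy 2.4.6). The procedure was tested on simulated data. The members and lists were chosen with earlier results of these data known. Genes named are the members, the 3 genes with the smallest p of each list and the 2 genes most like each member; Fos, marker genes, overlapping genes, Gpr37, Trh and Ppp1r9a were named outside this rule. Duplicates were looked for in 30 pairs of libraries of 1 group and none was found (chi-square per degree of freedom 6.22 to 78.2).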

Additional observations from a re-analysis of the deposited data

Results flagged for a closer look

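In the 26 groups of 6 values checked, 2 held a library set apart from the others, by a gap of over 0.625 of the range of its group (Dixon's limit for 6 samples). Chance flags about 1 in 20 groups. MI 1 had a Camk2g share of the CaMKII sum of 6.64%, where the other MI libraries had 3.46% to 4.52%. Sham 6 had a Camk2b share of 18.7%, where the other Sham libraries had 15.3% to 16.5%.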

How the results depend on the processing

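The count of 0 genes called in MI against Sham became 11 with DESeq2 and 211 in the Y set alone, and was 0 under the other 21 alternatives. No alternative called a member after adjustment. At an unadjusted p under 0.05 the count of members was 1 with limma-voom and sample weights (Camk2d), beside 1897 of 16829 genes. It was 3 in the Y set alone, beside 2727 of 16777 genes. When libraries were left out in turn it was 0 to 1. The 1 was Camk2d, without Sham 5 (beside 2013 of 16932 genes) and without Sham 6 (beside 1600 of 16998 genes). The interaction of MI with the set called 2 genes, and 0 to 61 when libraries were left out in turn, with 14 without Sham 3 and 61 without Sham 4. Of 23 alternatives, Camk2g and Ppp1r1b kept their sign in all 23. In the Xist set alone the log2 fold change turned to -0.21 for Camk2a, -0.22 for Camk2b, -0.25 for Ppp3ca, -0.10 for Prkca, 0.26 for Camk2d and 0.088 for Camk4. Leaving out libraries in turn gave -0.082 to 0.12 for Camk2a, -0.041 to 0.22 for Camk2b and -0.038 to 0.22 for Ppp3ca, whose values near 0 crossed it, and -1.03 to -0.56 for Camk2d, -0.24 to -0.032 for Camk4 and 0.052 to 0.27 for Prkca. With limma-voom and sample weights the log2 fold change was 0.19 for Camk2a, 0.23 for Camk2b and 0.31 for Ppp3ca, beyond these ranges. In that fit it was 0.26 for Prkca, -0.20 for Camk4 and -0.84 for Camk2d, within them. Creb1 turned to 0.013 without Sham 1 and Sham 6. The cause of these changes was not tested. With the longest transcript as length, the Camk2a share was 71.3% in MI and 70.4% in Sham. The Camk2b share was then 22.7% in MI and 21.7% in Sham, and that of Camk2d 1.27% and 2.49%. Correlated pairs of members numbered 16 without Sham 1 and Sham 6.

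The labels do not say whether the replicate numbers pair the libraries. Same-numbered libraries had correlations of their deviations from the group means of -0.35 to 0.40. Differently numbered libraries were not compared in this way, so these values cannot decide the question. With a replicate block 0 genes were called and Camk2d had a log2 fold change of -0.61. The design of 6 against 6 limits the precision of Camk2d most, given its spread.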
